A study of Mus musculus with 6 samples.

Results

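The genes described here mark the notochord and the nucleus pulposus, and were followed in whole intervertebral discs (IVDs) of mice that lack Adgrg6 in the disc. They are T, Noto, Shh, Foxa1, Foxa2, Krt8, Krt18, Krt19, Car12 and Cd24a, and they were chosen by symbol as 10 of the 43472 gene symbols in the count tables. The 3 mutant libraries were pools of Col2Cre;Adgrg6 f/f IVDs (Gpr126 f/f in the sample titles), and the 3 control libraries were pools of Cre (-) littermate IVDs, which the genotype labels call wild type and the titles Col2Cre controls. Mice of both groups were of the strain labelled C57B6/J and were killed at postnatal day 20, each pool held discs of the thoracic and lumbar spine from 2 to 3 mice, and no sex is given. Col2Cre, driven by the type II collagen promoter, recombines throughout the IVD from embryonic life on, per the study. Adgrg6 encodes an adhesion G protein-coupled receptor.

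The notochord is the midline rod of the embryo that patterns the neural tube and the somites, and its cells are enclosed by the forming vertebral column to become the nucleus pulposus, the gel-like core of the disc. Brachyury (T) and the homeobox factor Noto specify and maintain the notochord, the fork head factors Foxa1 and Foxa2 act with them, and Sonic hedgehog (Shh) is the signal that the notochord and the young nucleus pulposus secrete. Keratins 8, 18 and 19 form the simple epithelial intermediate filaments that set notochordal cells apart from chondrocytes, and Car12, a membrane-bound carbonic anhydrase, and Cd24a, a small glycosylated surface protein, are used as surface markers of the nucleus pulposus.

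Of the 10 markers, 9 were abundant enough to be tested and none passed the threshold after adjustment over all genes. Car12, lower in mutant IVDs, was the 1 marker with an unadjusted p under 0.05, where 7.21% of all tested genes had one, and it lost that call without control replicate 1 or without mutant replicate 1. T was higher on average in mutant IVDs and did not pass the test. The 3 keratins had nearly the same mean in both genotypes, and they rose and fell together from pool to pool. In whole discs, fewer cells of a type and less RNA per cell cannot be told apart, for any of these genes.

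The sequences just upstream of 4 of the markers are shown, since Krt8 and Krt18, which varied together, are neighbours on chromosome 15, and since Car12 and T were the markers with the largest log2 fold changes. Each runs 5′ to 3′ on the strand of the gene, is taken from RefSeq on GRCm38.p6, and ends at the base before the gene start of GENCODE M21. Capitals mark matches to the GC box, searched as GGGCGG on both strands. The intervals are chr17:8434173-8434422 on the plus strand for T, chr9:66713436-66713685 on the plus strand for Car12, chr15:102004483-102004592 on the minus strand for Krt8 and chr15:102027966-102028179 on the plus strand for Krt18.
T: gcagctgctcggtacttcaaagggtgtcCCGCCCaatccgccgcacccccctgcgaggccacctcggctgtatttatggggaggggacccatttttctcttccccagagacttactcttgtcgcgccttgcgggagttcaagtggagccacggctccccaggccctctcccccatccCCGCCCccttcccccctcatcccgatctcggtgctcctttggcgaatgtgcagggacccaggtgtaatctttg
Car12: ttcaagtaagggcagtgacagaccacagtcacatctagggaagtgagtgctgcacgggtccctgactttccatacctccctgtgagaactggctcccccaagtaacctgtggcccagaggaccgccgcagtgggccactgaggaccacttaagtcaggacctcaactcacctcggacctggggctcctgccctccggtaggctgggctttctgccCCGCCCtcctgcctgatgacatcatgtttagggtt
Krt8: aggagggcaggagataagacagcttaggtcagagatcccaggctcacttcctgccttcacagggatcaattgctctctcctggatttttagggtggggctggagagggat
Krt18: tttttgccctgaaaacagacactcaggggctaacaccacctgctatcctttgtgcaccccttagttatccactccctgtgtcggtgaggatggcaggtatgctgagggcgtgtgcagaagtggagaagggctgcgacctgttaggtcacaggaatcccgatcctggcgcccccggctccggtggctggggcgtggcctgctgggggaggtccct

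The T window held 2 GC boxes, starting 222 and 73 bases before the RefSeq start, and the Car12 window held 1, starting 35 bases before it. The Krt8 and Krt18 stretches held none. RefSeq windows of 250 bases were at hand for 7 of the 10 markers, in 9 windows, of which 5 held a GC box, beside 32.7% of 32851 mouse promoters. The core of the T-box motif that brachyury binds (GGTGTG, both strands) was in 1 of the 9 windows, that of Foxa1, and in 16.3% of all promoters. The fork head motif TGTTTAC was again in the Foxa1 window alone, and in 3.17% of all promoters, while the GLI motif TGGGTGGTC was in none of the 9 and in 0.225% of all. These are counts of letters in fixed windows, not of bound sites.

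Counts on genes were 9061491 to 11207307 in the control and 9695971 to 12017008 in the mutant libraries. Control replicate 1 stood apart by skeletal muscle: the 6 muscle genes examined summed to 3609 CPM (counts per 1000000 counts of the scaled library) there and to 65.0 to 148 CPM in the other 5 libraries. Adgrg6, listed by its older symbol Gpr126, was at 124, 108 and 94.3 CPM in control and 138, 124 and 106 CPM in mutant replicates 1, 2 and 3. The exons between the loxP sites are not named in the sources used here and a count per gene takes in every exon, so these values do not check the genotype labels. Of the chondrocyte genes, Col2a1 ranged from 62708 to 124063 CPM over the 6 libraries, and the tissue was thus cartilage-rich in both groups.

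The markers covered a wide range of levels. Per kilobase of exon in control IVDs, the order was Krt19 at 281 ± 125 CPM per kb (SD, n = 3), Krt8 at 212 ± 97.9, Cd24a at 126 ± 22.7, T at 94.9 ± 38.9, Krt18 at 44.6 ± 18.6, Car12 at 14.5 ± 4.82, Foxa2 at 10.7 ± 3.54, Foxa1 at 0.653 ± 0.239 and Shh at 0.322 ± 0.295 CPM per kb. The ranges of neighbours over the 6 libraries overlapped for Krt19 and Krt8, for Krt8 and Cd24a, for Cd24a and T, for T and Krt18, for Car12 and Foxa2, and for Foxa1 and Shh. They did not overlap between Krt18, at 32.9 to 66.1 CPM per kb, and Car12, at 7.18 to 19.8, nor between Foxa2, at 4.82 to 14.2, and Foxa1, at 0.417 to 1.20. In mutant IVDs the order differed in that T, at 145 ± 58.6 CPM per kb (SD, n = 3), stood above Cd24a, at 110 ± 15.2, and Foxa2, at 9.06 ± 4.73, above Car12, at 8.63 ± 1.47.

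**Figure D1:**
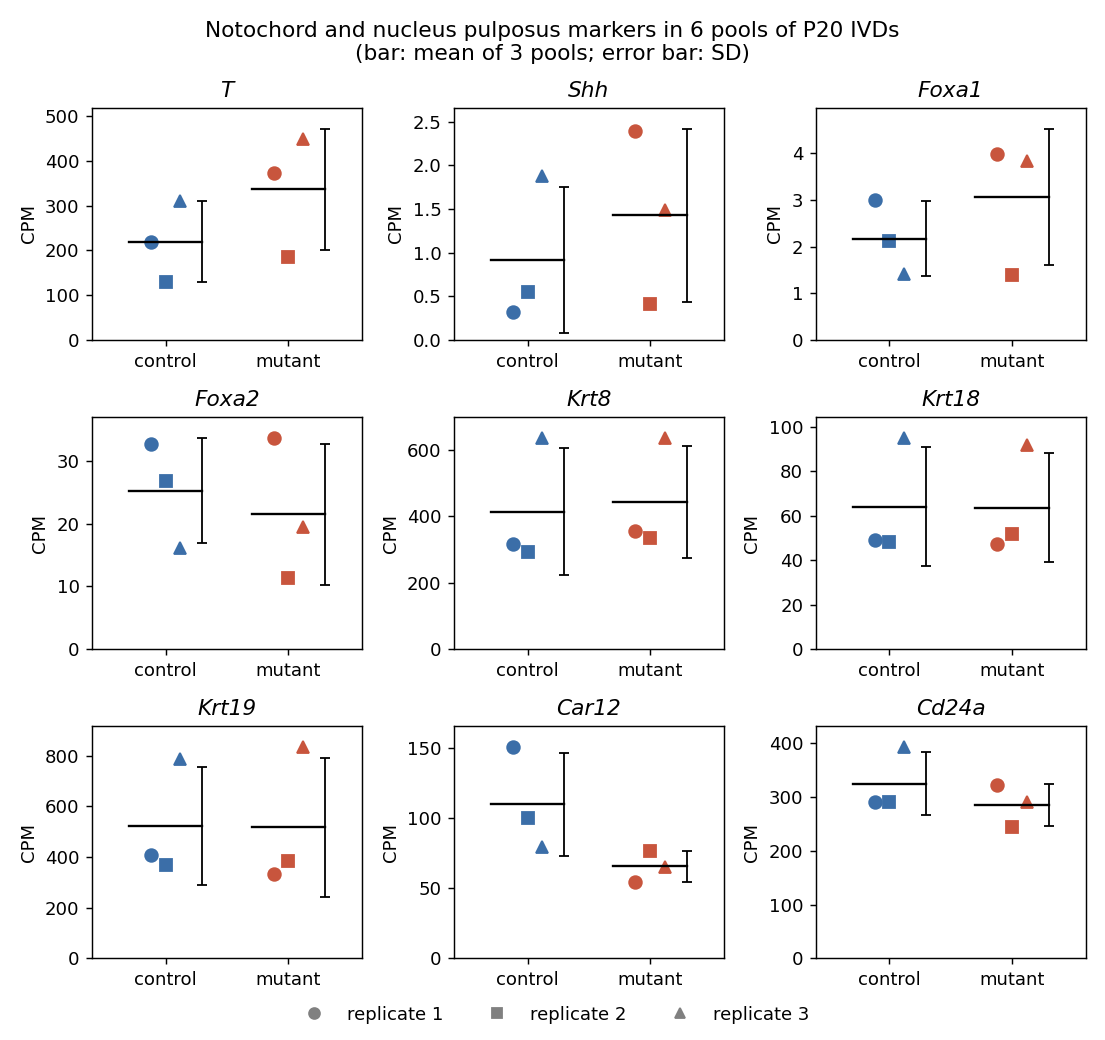
CPM of the 9 tested markers in each of the 6 pools, in linear axes from 0, with control pools in blue, mutant pools in red and a symbol for each replicate number (bar, mean of 3 pools; error bar, SD). Car12 is the panel in which the groups do not overlap, with 79.3 CPM or more in control and 76.9 CPM or less in mutant pools.

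The comparison of mutant with control IVDs asks whether loss of Adgrg6 changed the expression of these markers at an age before overt disease. In edgeR's quasi-likelihood test, 0 of the 9 tested markers had an adjusted p under 0.05, beside 0.00619% of all 16152 tested genes, which is 1 gene. At an unadjusted p under 0.05, 1 marker was lower and 0 were higher, beside 7.21% of all tested genes in either direction, 4.32% lower and 2.89% higher. DESeq2 and limma-voom each gave 1 marker at an unadjusted p under 0.05, beside 7.6% and 5.78% of all genes, and 0 after adjustment, beside 58 and 0 genes. The log2 fold change of mutant over control was above 0 for 4 and below 0 for 5 of the 9 markers, with a median of -0.01, the same as the median of -0.01 over all tested genes. Sorted by whether the groups overlapped, 1 of the 9 had every mutant pool on one side of every control pool, beside 11.4% of all tested genes (5.96% with the mutant pools lower and 5.45% with them higher).

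Car12 was lower in mutant IVDs. It is on chromosome 9 from 66713686 to 66766845 on the plus strand of GRCm38, and was measured at 150, 99.8 and 79.3 CPM in control replicates 1, 2 and 3 and at 54.5, 76.9 and 65.3 CPM in mutant replicates 1, 2 and 3. Every mutant pool was below every control pool, by little between the highest mutant and the lowest control. The means were 110 ± 36.7 and 65.6 ± 11.2 CPM (SD, n = 3 each), a log2 fold change of -0.74 ± 0.25 (SE) with a 95% interval of -1.29 to -0.19 (edgeR unadjusted p = 0.013, adjusted p = 0.676, adjusted p 0.111 to 0.999 over 12 alternatives). Control replicate 1, the library with muscle RNA, also had the highest Car12, and without it the log2 fold change was -0.43 with an unadjusted edgeR p of 0.0684. Without mutant replicate 1, the lowest, it was -0.59 with a p of 0.0675, while the p stayed under 0.05 in the other 10 alternatives.

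The carbonic anhydrases, which interconvert carbon dioxide and bicarbonate, did not share one direction. Of 13 other family members in the table, 12 were tested, and 1 was higher and 1 lower at an unadjusted p under 0.05. Of all tested genes, 2.89% were higher and 4.32% lower. The median log2 fold change of the 12 was 0.14. In either direction the count was 3 without control replicate 1 or without the filter, where 14.1% and 8.62% of all genes passed. It was 1 in limma-voom and when control replicate 3 or mutant replicate 1 or 3 was left out. There 5.78%, 3.77%, 4.76% and 5.1% of all genes passed. Without control replicate 2 or mutant replicate 2, Car2 and Car9 were higher and 0 were lower, beside 5.59% and 9.76% of all genes. Car3, the highest of the 13 by CPM and itself much used as a nucleus pulposus marker, was at 2311, 1267 and 2737 CPM in control and 1697, 2461 and 3520 CPM in mutant replicates 1, 2 and 3. Its groups overlapped, with a log2 fold change of 0.28 ± 0.36 (SE) and an edgeR unadjusted p of 0.446. Car2, a cytosolic enzyme of red blood cells and osteoclasts among others, was at 11.7, 5.11 and 6.25 CPM in control and 18.5, 18.8 and 11.3 CPM in mutant replicates 1, 2 and 3, so that mutant replicate 3 fell just below control replicate 1. Its log2 fold change was 1.08 ± 0.35 (SE; edgeR unadjusted p = 0.0105, adjusted p = 0.676 and 0.0649 to 0.999 over 12 alternatives). Of 9 red blood cell genes examined, 8 were tested, and 1 was higher and 0 lower at an unadjusted p under 0.05. Higher were 7 without control replicate 1, 3 without mutant replicate 3, 5 in limma-voom and 8 of 9 without the filter. In these settings 14.1%, 5.1%, 5.78% and 8.62% of all genes passed in either direction, beside 7.21% with all libraries and the reported settings. The red blood cell genes summed to 40.1 to 345 CPM in control and 215 to 458 CPM in mutant pools. Their part in the Car2 difference was not tested. Car10, a family member without enzymatic activity, was at 0.856, 5.77 and 15.8 CPM in control and 1.82, 3.02 and 1.70 CPM in mutant replicates 1, 2 and 3. Its log2 fold change of -1.77 ± 0.78 (SE; edgeR unadjusted p = 0.0471, adjusted p = 0.691 and 0.0786 to 0.999 over 12 alternatives) had an unadjusted p under 0.05 in 5 of the 12 alternatives, which ran from -2.27 to -0.58, the latter without control replicate 3. By mean CPM the next after Car3 were Car9, a hypoxia-induced membrane enzyme, with a log2 fold change of 0.69 ± 0.35 (SE; edgeR unadjusted p = 0.0731), and mitochondrial Car5b with -0.14 ± 0.34 (SE; edgeR unadjusted p = 0.692).

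Brachyury was abundant in all 6 pools. T lies on chromosome 17 from 8434423 to 8442496 on the plus strand, and was at 219, 130 and 310 CPM in control and 373, 186 and 450 CPM in mutant replicates 1, 2 and 3. The lowest of all was control replicate 2, and 2 of the 3 mutant pools were above every control pool while mutant replicate 2 was below 2 of them. With means of 220 ± 90.1 and 336 ± 136 CPM (SD, n = 3 each), the log2 fold change was 0.61 ± 0.36 (SE), with a 95% interval of -0.20 to 1.42 (edgeR unadjusted p = 0.123, adjusted p = 0.749 and 0.408 to 0.999 over 12 alternatives). Leaving out 1 library in turn gave 0.34 to 0.95, above 0 each time, and without control replicate 3 or without mutant replicate 2 the unadjusted edgeR p was 0.0341 and 0.019. Without the filter on low counts it was 0.0179, at a log2 fold change of 0.63. Noto, which in the embryo acts in the node and the posterior notochord, had 1 count in mutant replicate 2 and 0 in the other 5 libraries. In those 5 libraries a count of 0 allows up to 0.235 to 0.341 CPM (3 counts, for counting error only), and Noto was not tested. It lies on chromosome 6 from 85423886 to 85428877 on the plus strand.

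**Figure D2:**
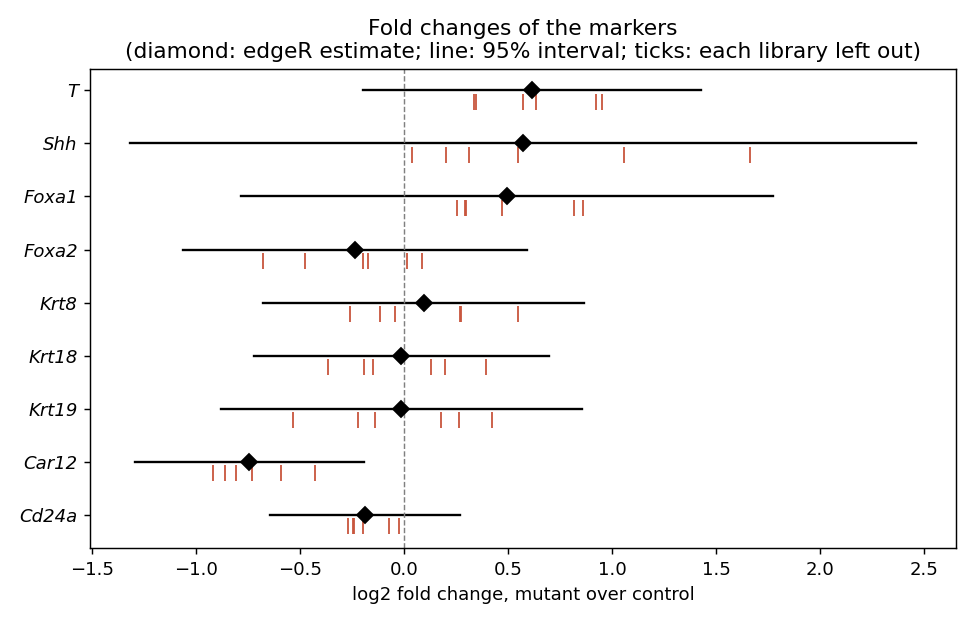
Log2 fold change of mutant over control IVDs for the 9 tested markers (diamond, edgeR estimate; line, 95% interval; red ticks, the estimates with each of the 6 libraries left out). The interval of Car12, -1.29 to -0.19, is the one that does not include 0, and the intervals of Foxa2 and the keratins lie on both sides of 0 with ticks on both sides as well.

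Neither fork head factor passed the test, and Foxa1 was the lower of the pair per kilobase in every pool. Foxa2, on chromosome 2 from 148042877 to 148046969 on the minus strand, was at 32.7, 26.9 and 16.2 CPM in control and 33.6, 11.4 and 19.4 CPM in mutant replicates 1, 2 and 3. The groups overlapped fully, and the log2 fold change was -0.24 ± 0.37 (SE; 95% interval -1.06 to 0.59, edgeR unadjusted p = 0.538, adjusted p = 0.908). Foxa1, on chromosome 12 from 57540628 to 57546916 on the minus strand, was at 3.00, 2.11 and 1.41 CPM in control and 3.98, 1.39 and 3.82 CPM in mutant replicates 1, 2 and 3, from 17 to 36 counts a library. Mutant replicates 1 and 3 were above all control pools and mutant replicate 2 was the lowest of all, with a log2 fold change of 0.49 ± 0.57 (SE; 95% interval -0.78 to 1.77, edgeR unadjusted p = 0.41, adjusted p = 0.857). The third member of the family, Foxa3, which is not a notochord marker and is known from hypertrophic chondrocytes, was at 28.9, 32.6 and 30.6 CPM in control and 20.4, 21.7 and 17.1 CPM in mutant replicates 1, 2 and 3. It did not overlap between the groups and was lower in mutant IVDs (log2 fold change -0.64 ± 0.17 SE, edgeR unadjusted p = 0.00423, adjusted p = 0.633 and 0.167 to 0.999 over 12 alternatives).

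Shh was close to the limit of detection. It lies on chromosome 5 from 28456815 to 28467256 on the minus strand, and 3, 5 and 24 counts were found in control and 21, 5 and 14 in mutant replicates 1, 2 and 3, which is 0.321, 0.555 and 1.88 CPM and 2.39, 0.408 and 1.49 CPM. The 7.44-fold range over the pools was the widest of the markers, and the groups overlapped, with a log2 fold change of 0.57 ± 0.85 (SE; 95% interval -1.32 to 2.46, edgeR unadjusted p = 0.516, adjusted p = 0.903). Its exons share 446 bases with an antisense transcript, 9530036O11Rik, which had 232 counts over the 6 libraries beside 72 for Shh. With no strand setting given for the counting, reads of the 2 genes cannot be told apart in that stretch. The antisense gene was at 8, 48 and 124 counts in control and 13, 26 and 13 counts in mutant replicates 1, 2 and 3, and the groups overlapped. Its log2 fold change was -1.67 ± 0.72 (SE; edgeR unadjusted p = 0.0433, adjusted p = 0.691 and 0.0797 to 0.999 over 12 alternatives), and without control replicate 3 it was -0.87 with an unadjusted edgeR p of 0.283.

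In the hedgehog pathway around Shh, 1 ligand had an unadjusted p under 0.05 with all libraries and the reported settings. Hedgehog ligands bind the receptor Ptch1 and so free Smo, which acts through the Gli factors, and Gli1 and Ptch1 are themselves induced by the signal. Of 15 other pathway genes, 0 were higher and 1, Ihh, was lower at an unadjusted p under 0.05. Of all tested genes, 2.89% were higher and 4.32% lower at that threshold. The median log2 fold change of the 15 was -0.05. Cdon, a co-receptor, was higher as well without control replicate 2, without the filter and in DESeq2 and limma-voom, Ptch1 was lower as well with library totals in place of TMM, and Ptch1 and Hhip were lower as well without mutant replicate 1. Ihh, the ligand made by prehypertrophic chondrocytes and not by the notochord, was at 188, 189 and 112 CPM in control and 63.3, 47.7 and 63.6 CPM in mutant replicates 1, 2 and 3. All mutant pools were well below all control pools (log2 fold change -1.49 ± 0.24 SE, edgeR unadjusted p = 8.88e-05, adjusted p = 0.287 and 3.23e-06 to 0.866 over 12 alternatives). Of the 10 other genes of prehypertrophic and hypertrophic chondrocytes examined, 5 (Panx3, Pth1r, Mef2c, Runx2 and Foxa3) were lower and 0 higher at an unadjusted p under 0.05. Of these 5, only Panx3 and Foxa3 were lower without control replicate 1, and only Panx3, Pth1r and Foxa3 without mutant replicate 3. Mef2c and Runx2 dropped out without mutant replicate 1, Mef2c without control replicate 3 and Pth1r without mutant replicate 2. Col10a1 had a log2 fold change of -0.91 (edgeR unadjusted p = 0.0573). It was lower as well without control replicate 3 or mutant replicate 1, without the filter, with library totals in place of TMM and with the block. Ibsp and Spp1, matrix proteins of bone and calcified cartilage, had log2 fold changes of 0.44 and 0.28 and did not pass. With Ihh, the list had a median log2 fold change of -0.64 and a summed level of 2687 to 4093 CPM in control and 2468 to 2937 CPM in mutant pools, and the part of these cells in the Ihh difference was not tested. The target gene Gli1 was at 138, 211 and 146 CPM in control and 206, 114 and 164 CPM in mutant replicates 1, 2 and 3, with a log2 fold change of -0.03 ± 0.25 (SE; edgeR unadjusted p = 0.907), and its groups overlapped. Smo gave 0.13 ± 0.31 (SE; edgeR unadjusted p = 0.69) and Gas1, a co-receptor and the highest of the list by CPM at 405 to 1071 CPM, gave -0.05 ± 0.34 (SE; edgeR unadjusted p = 0.894).

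Keratins 8, 18 and 19 were strongly expressed and their means differed little between the genotypes. Krt8, a type II keratin on chromosome 15 from 101996698 to 102004482 on the minus strand, was at 316, 292 and 636 CPM in control and 356, 337 and 637 CPM in mutant replicates 1, 2 and 3. Krt18, its type I partner, lies 23.7 kb away from 102028180 to 102032027 on the plus strand and was at 49.2, 48.2 and 94.98 CPM in control and 47.3, 51.9 and 91.8 CPM in mutant replicates 1, 2 and 3. Krt19, the other type I partner, lies on chromosome 11 from 100140810 to 100148665 on the minus strand and was at 409, 368 and 789 CPM in control and 333, 386 and 834 CPM in mutant replicates 1, 2 and 3. For each keratin, control replicate 3 and mutant replicate 3 were the 2 highest pools and the other 4 lay close together. The log2 fold change was 0.09 ± 0.35 (SE) for Krt8, with a 95% interval of -0.68 to 0.86 and an edgeR unadjusted p of 0.791. It was -0.01 ± 0.32 (SE) for Krt18, from -0.72 to 0.69, with an edgeR unadjusted p of 0.968, and -0.01 ± 0.39 (SE) for Krt19, from -0.88 to 0.86, with an edgeR unadjusted p of 0.975. These intervals allow changes of over 0.6 in either direction on the log2 scale, and the sign of each estimate turned in several alternatives. A processed pseudogene, Krt8-ps, shares 98.6% of 941 bases with Krt8, and how reads were divided between them is not given in the sources used here.

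The 3 keratins varied together more closely than any other pair of the markers. Over the 6 libraries, Pearson's r of log2 CPM was 0.989 for Krt18 and Krt19, 0.979 for Krt8 and Krt18 and 0.954 for Krt8 and Krt19, while the 36 pairs of tested markers ranged from -0.787 to 0.989. Ranked against the 16151 other tested genes, Krt19 and Krt8 were the 1st and 2nd nearest to Krt18, and Krt18 was the 4th nearest to Krt8 and the 2nd nearest to Krt19. Between Krt8 and Krt19 the ranks were lower, with Krt19 the 18th nearest to Krt8 and Krt8 the 17th nearest to Krt19. These values describe 6 points, of which 2 are high, that share their library and its depth with every other gene. T followed the keratins less closely, at 0.743 with Krt8, 0.600 with Krt18 and 0.574 with Krt19. Foxa2 was at -0.45 to -0.39 with the 3 keratins and Car12 at -0.43 to -0.18. Shh and Car12 had the lowest value, -0.79, at few counts for Shh.

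**Figure D3:**
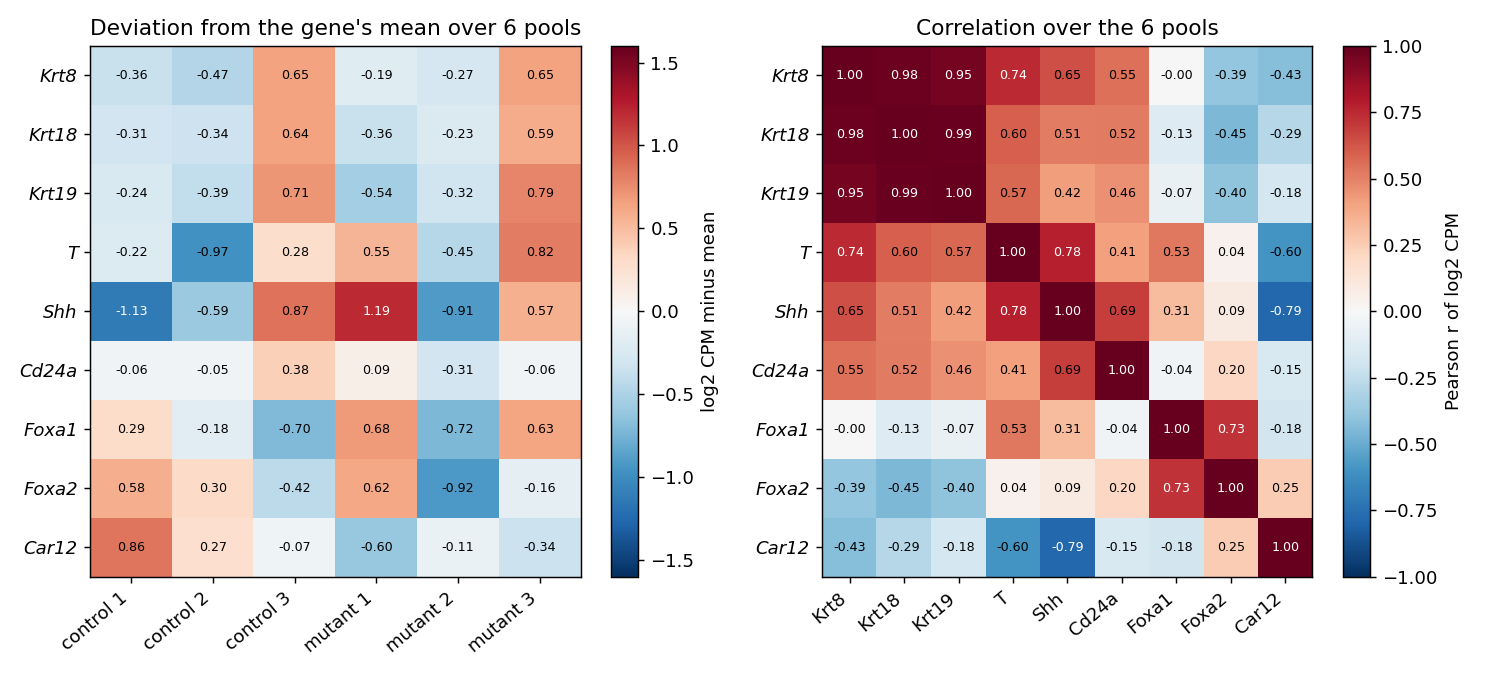
On the left, the log2 CPM of each tested marker in each pool minus its mean over the 6 pools, and on the right Pearson's r of log2 CPM between markers over the same 6 pools, with the value written in each cell. The 3 keratins are high in control 3 and mutant 3 (0.59 to 0.79 above their mean) and low in the other 4, and Car12 is highest in control 1 at 0.86 above its mean.

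Ratios within a library do not depend on the scaling between libraries. The log2 ratio of Krt18 to Krt8 counts was -2.68, -2.60 and -2.74 in control and -2.91, -2.70 and -2.79 in mutant replicates 1, 2 and 3, which is a difference of -0.12 with SDs of 0.07 and 0.11. The ratio thus spanned less than Krt8 itself, whose CPM ranged 2.18-fold over the 6 pools. The log2 ratio of Krt19 to Krt8 was 0.37, 0.33 and 0.31 in control and -0.10, 0.20 and 0.39 in mutant replicates 1, 2 and 3, so that mutant replicate 1 had less Krt19 for its Krt8 than any other pool. For T to Krt8 it was -0.53, -1.17 and -1.04 in control and 0.07, -0.85 and -0.50 in mutant replicates 1, 2 and 3, a mean difference of 0.48, and the groups overlapped. The Krt19 and T ratios were chosen after their values had been seen, and no ratio was tested.

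**Figure D4:**
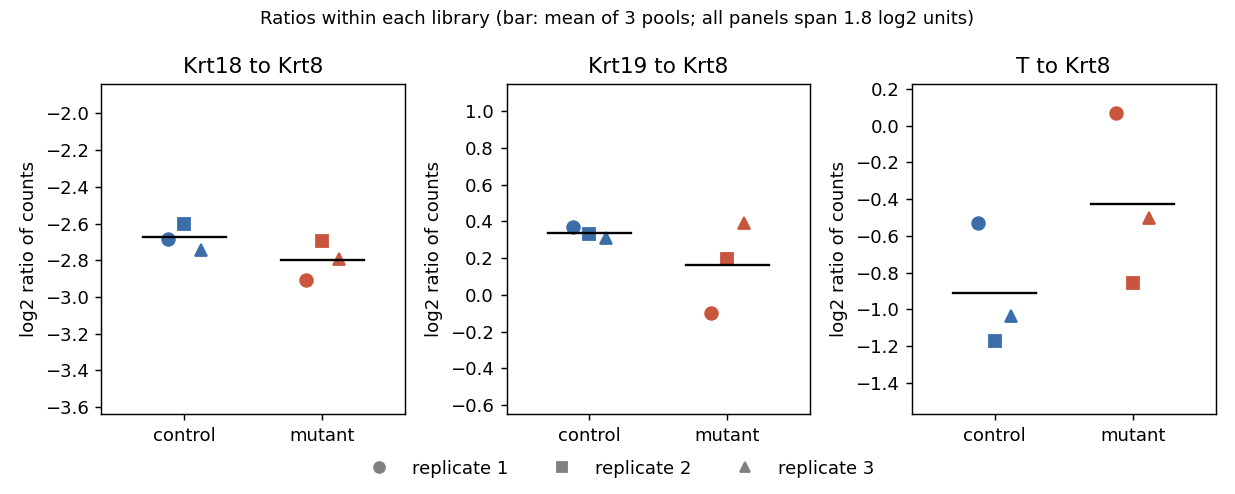
Log2 ratio of the counts of Krt18, Krt19 and T to those of Krt8 in each pool (bar, mean of 3 pools), in panels that span the same number of log2 units. Krt18 to Krt8 stays between -2.91 and -2.60 in all 6 pools, and T to Krt8 runs from -1.17 to 0.07.

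Among other genes of simple epithelia, with which the nucleus pulposus shares its keratins and desmosomes, 1 had an unadjusted p under 0.05. Of 14 in the table, 12 were tested. At that threshold 0 were higher and 1 was lower, beside 2.89% and 4.32% of all tested genes. The median log2 fold change of the 12 was 0.22. Without control replicate 1, Jup was higher as well, and none passed in limma-voom or when control replicate 2 or 3 or mutant replicate 1 was left out. The 1 gene that passed was Jup (higher) without mutant replicate 2 and Pkp2 (lower) without mutant replicate 3. Plec, Dsp and Jup, which link filaments to junctions, had the highest mean CPM of them, and the desmosomal plakin Dsp was at 59.0, 35.4 and 76.7 CPM in control and 51.0, 55.2 and 92.3 CPM in mutant replicates 1, 2 and 3. The log2 fold changes were 0.23 ± 0.21 (SE; edgeR unadjusted p = 0.29) for Plec, 0.21 ± 0.30 (SE; edgeR unadjusted p = 0.498) for Dsp and 0.47 ± 0.22 (SE; edgeR unadjusted p = 0.0542) for Jup. The lower gene was Cdh1, the epithelial cadherin, at 0.428, 3.66 and 6.02 CPM in control and 0.797, 0.571 and 1.06 CPM in mutant replicates 1, 2 and 3. Its groups overlapped, since control replicate 1 was the lowest of all, and its log2 fold change of -2.06 ± 0.83 (SE; edgeR unadjusted p = 0.0323, adjusted p = 0.676 and 0.0934 to 0.999 over 12 alternatives) had an unadjusted p under 0.05 in 5 of 12 alternatives. The 6 lung epithelial genes examined had their highest sum in control replicate 3, where Cdh1 was highest too, with 0.428, 1.89 and 7.04 CPM in control replicates 1, 2 and 3 and 0.490 to 0.910 CPM in mutant pools, though Sftpc and Sftpb were highest in mutant replicate 1, and their part in the Cdh1 difference was not tested. Of 8 keratinocyte genes, which summed to 7.81 to 10.7 CPM in control and 8.65 to 12.96 CPM in mutant pools, the defining Krt5 and Krt14 were at 0.245 CPM or less in every library.

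With the mean of the 3 keratins over the 6 libraries, 9 of 20 other genes associated with the nucleus pulposus had r above 0.5, which is 45.0%, beside 13.1% of 16149 tested genes. Among them were Sostdc1, a secreted antagonist of BMP and Wnt, at 0.899, the lectin Lgals3 at 0.866, vimentin (Vim) at 0.841 and Car3 at 0.776. Others of the list ran the other way, the lowest being Hif1a at -0.611, Tek at -0.426 and Ctgf at -0.419. Of the other 6 tested markers, 3 were above 0.5, and Foxa2 was at -0.417 and Car12 at -0.300. For simple epithelial genes it was 5 of 12, or 41.7%, with the desmosomal Dsc2 at 0.946, Krt7 at 0.897 and Dsp at 0.867. The cut of 0.5 was chosen after values were seen, and genes of one library are not independent.

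Of the 20 other genes associated with the nucleus pulposus, all were tested, and 1 was higher and 0 lower at an unadjusted p under 0.05. Of all tested genes, 2.89% were higher and 4.32% lower. The 20 had a median log2 fold change of 0.29, and their summed level was 4836 to 7958 CPM in control and 6724 to 10509 CPM in mutant pools. The higher gene was Aqp1, a water channel that is also made by endothelium and red blood cells, at 122, 65.5 and 83.5 CPM in control and 162, 172 and 162 CPM in mutant replicates 1, 2 and 3. Every mutant pool was above every control pool (log2 fold change 0.87 ± 0.23 SE, edgeR unadjusted p = 0.00353, adjusted p = 0.627 and 0.0248 to 0.999 over 12 alternatives). Of the sources of Aqp1 other than the disc, the 6 endothelial genes summed to 142 to 273 CPM in control and 225 to 254 CPM in mutant pools. With all libraries and the reported settings, 0 of them passed. Cdh5 alone was higher without the filter or with the replicate number as a block, where 8.62% and 6.2% of all genes passed. Without control replicate 1, where 14.1% of all genes passed, 4 (Pecam1, Cdh5, Kdr and Tie1) were higher. The red blood cell genes are given above, and the part of both in the Aqp1 difference was not tested. The 3 with the highest mean CPM in the list overlapped between groups. Vim, the mesenchymal intermediate filament protein, was at 2347, 1795 and 3112 CPM in control and 2681, 2422 and 4487 CPM in mutant replicates 1, 2 and 3 (log2 fold change 0.40 ± 0.32 SE, edgeR unadjusted p = 0.24). Lgals3 was at 531, 673 and 905 CPM in control and 507, 527 and 791 CPM in mutant replicates 1, 2 and 3 (log2 fold change -0.21 ± 0.27 SE, edgeR unadjusted p = 0.453), and Car3 is given above. The count of genes at an unadjusted p under 0.05 in either direction was 3 in DESeq2 and 4 without the filter. In these 7.6% and 8.62% of all genes passed, and 7.21% did with all libraries and the reported settings. It was 5 without control replicate 1 or mutant replicate 2, where 14.1% and 9.76% of all genes passed, 4 without control replicate 3, where 3.77% did, 2 without control replicate 2 or mutant replicate 1, where 5.59% and 4.76% did, and 1 without mutant replicate 3, where 5.1% did.

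Cd24a was the steadiest of the markers. It lies on chromosome 10 from 43578284 to 43584265 on the plus strand and was at 290.03, 290.9 and 392 CPM in control and 321, 244 and 290 CPM in mutant replicates 1, 2 and 3. The groups overlapped, and the log2 fold change was -0.19 ± 0.20 (SE; 95% interval -0.64 to 0.27, edgeR unadjusted p = 0.381, adjusted p = 0.853), or -0.27 to -0.02 with 1 library left out. The SD of its log2 CPM within groups, 0.23, was larger than that of 28.9% of the tested genes, whereas for T, at 0.65, it was larger than that of 83.5%, and for Krt19, at 0.66, than that of 83.7%. Cd24a is also made by immature B cells, neutrophils and red blood cell precursors. Of 9 B-cell genes, 3 were tested and 0 passed, Rag1 was at 0 in every library, and Ebf1, which is shared with other tissues, made up most of their sum of 50.2 to 93.0 CPM. The 9 neutrophil genes summed to 16.6 to 61.4 CPM in control and 34.0 to 161 CPM in mutant pools. Of them, 2 (the granule genes Mpo and Prtn3) were higher at an unadjusted p under 0.05, beside 2.89% of all tested genes. There were 5 such genes without the filter, without control replicate 3 or without mutant replicate 3. There were 3 without mutant replicate 2 and 1 without mutant replicate 1. In these settings, in that order, 8.62%, 3.77%, 5.1%, 9.76% and 4.76% of all genes passed in either direction. The part of the B-cell, neutrophil and red blood cell genes in the level of Cd24a was not tested.

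**Figure D5:**
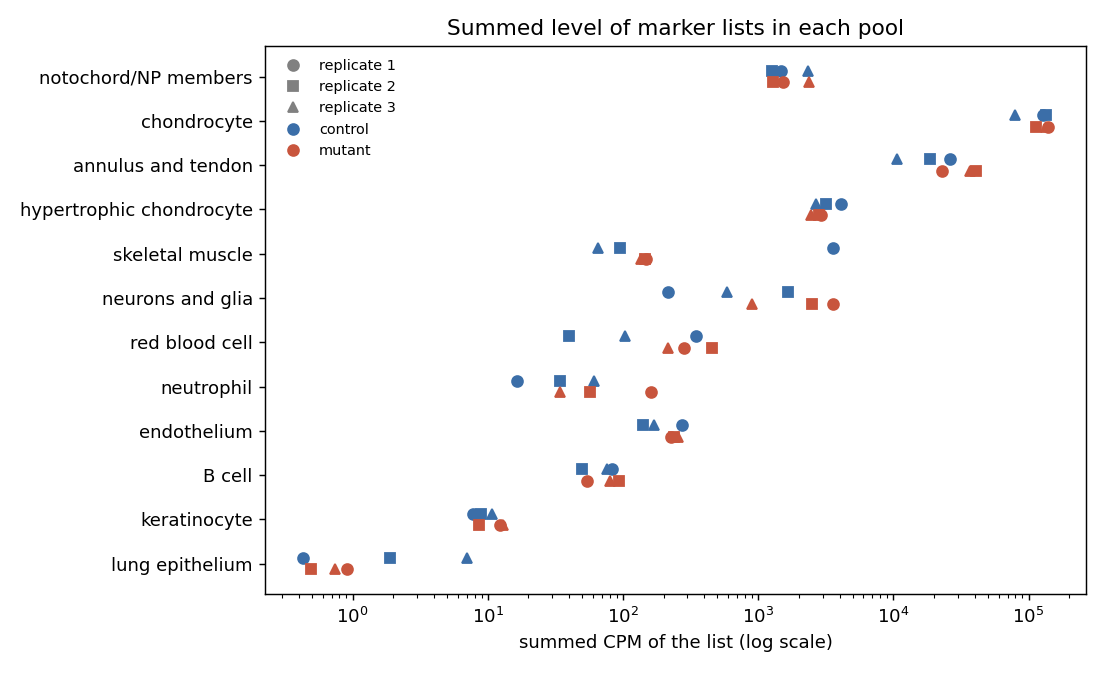
Summed CPM of the 10 markers and of the genes of other cell types in each pool, on a log axis, with control pools in blue and mutant pools in red. The 10 markers sum to 1258 to 2320 CPM in control and 1294 to 2391 CPM in mutant pools, with replicate 3 highest in both groups, and skeletal muscle is at 3609 CPM in control 1 alone.

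Summed over the 10 markers, the level was 1470, 1258 and 2320 CPM in control and 1524, 1294 and 2391 CPM in mutant replicates 1, 2 and 3, and the groups overlapped over nearly their whole range. Of the 9 chondrocyte genes, Col2a1 and Sox9 were lowest in control replicate 3 and the other 7 in a mutant pool. None was higher and 1, Matn3, was lower at an unadjusted p under 0.05 (log2 fold change -0.78, groups not overlapping). Of all tested genes, 2.89% were higher and 4.32% lower at that threshold. Matn3 did not pass when control replicate 1 or mutant replicate 2 or 3 was left out. The median log2 fold change of the 9 was -0.29. Col2a1 made up most of their sum of 78907 CPM in control replicate 3 and 113232 to 139917 CPM in the other 5 pools. The 8 genes of annulus and tendon summed to 10657 to 26065 CPM in control and 23038 to 41089 CPM in mutant pools, lowest in control replicate 3. Col1a1 and Col1a2 gave the most to these sums, and both overlapped between the groups. Of the 8, 4 (Tnmd, Tnc, Thbs4 and Col1a1) were higher at an unadjusted p under 0.05, beside 2.89% of all tested genes. Col1a1 did not pass when replicate 2 or 3 of either group was left out. Scx was higher as well without replicate 2 of either group or without the filter. Col1a2 was higher as well without replicate 1 of either group, without the filter, in DESeq2 and in limma-voom. The 9 neuronal and glial genes, of which Tubb3 was at 0, summed to 217 to 1655 CPM in control and 908 to 3580 CPM in mutant pools. At an unadjusted p under 0.05, 3 (Nefl, Nefm and Gfap) of 8 tested were higher, beside 2.89% of all tested genes. There were 5 without control replicate 2 or mutant replicate 3, in limma-voom or without the filter, and 2 without mutant replicate 1. In these settings, in that order, 5.59%, 5.1%, 5.78%, 8.62% and 4.76% of all genes passed in either direction. Syt1 was lower without control replicate 1 or without the filter. Of the muscle genes, 6 of 6 were lower in mutant IVDs at that threshold with all libraries and the reported settings. Of all tested genes, 4.32% were lower. Without control replicate 1 no muscle gene was lower and 3 (Acta1, Ckm and Myh1) were higher, beside 14.1% of all genes in either direction. Leaving out mutant replicate 1, 2 or 3 in turn left 1, 2 and 1 lower, beside 4.76%, 9.76% and 5.1%. In DESeq2 1 of the 6 was lower, beside 7.6%, and in limma-voom 0 passed in either direction, beside 5.78%. The part of these tissues in the levels of the markers was not tested.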

How the data were processed

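Poly(A) RNA of 6 pools of IVDs was sequenced in paired ends, and the authors deposited the raw counts per gene symbol of each library, without normalization. The study's methods name Cutadapt, FastQC and HISAT2 with GRCm38.88, while the submitters' processing notes name STAR 2.5.3a, HTSeq, DESeq2 and the builds mm10 and GRCm38. Which of them made the counts, and the strand setting, are not given in the sources used here, and the difference can move reads of genes with close copies or antisense partners. A deposited table of the authors' own comparison holds fold changes, p-values and normalized values of genes past their threshold, and was not used.

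Rows that name no gene were left out of library sizes. They held 39.4% to 43.3% of reads as outside genes, 12.0% to 18.9% as not aligned and 0.846% to 1.05% as ambiguous. Libraries were scaled by TMM and genes filtered with filterByExpr (count minimum 10). The 16152 genes left entered the quasi-likelihood test of edgeR 4.0.16 in R 4.3.3, and p-values were adjusted over all of these genes by the method of Benjamini and Hochberg. CPM are counts per 1000000 of the library's counts on the tested genes, scaled by TMM, and log2 CPM were taken with a prior count of 2. Replicates are separate pools of mice. Precision from counts covers counting error only, since reads carry no molecular identifiers. Scripts were tested on simulated data.

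The alternatives were RLE size factors, library totals without TMM, no filter, DESeq2 1.42.0, voom of limma 3.58.1, the replicate number as a block, and leaving out each library. The study's own test works on FPKM, which were not used here. The markers and gene lists were chosen with earlier results of these data known. Named are all 10 markers, of the nucleus pulposus, hedgehog, simple epithelial and carbonic anhydrase lists every gene at an unadjusted p under 0.05 and the 3 with the highest mean CPM, and the 5 genes closest to the mean profile of the markers. Foxa3, 9530036O11Rik, the genes given by their correlation with the keratins, and those named inside other lists were chosen after their values were seen. Further promoter motifs were looked at and are not reported. Positions are those of GENCODE M21 on GRCm38.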

Additional observations from a re-analysis of the deposited data

How the results depend on the processing

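Car12 was lower in all 12 alternatives, and T, Shh and Foxa1 were higher and Cd24a lower in all 12, with sizes that moved: with 1 library left out, Shh ran from 0.04 to 1.66, Foxa1 from 0.26 to 0.86, Cd24a from -0.27 to -0.02 and Car12 from -0.92 to -0.43. The number of markers at an unadjusted p under 0.05, 1 with all libraries and settings as reported, was 2 without the filter on low counts and 2 with the replicate block, T being added each time (log2 fold change 0.63 and 0.61), and 0 to 2 with 1 library left out: 0 without control replicate 1 or mutant replicate 1, and 2 without control replicate 3 or mutant replicate 2. The share of all genes at that threshold was 8.62% without the filter, 6.2% with the block, 14.1% and 4.76% in the pair of comparisons that gave 0 markers, and 3.77% and 9.76% in the pair that gave 2. With 1 library left out, 1 to 3 markers had groups that did not overlap. Krt8 was added without control replicate 3, Cd24a without mutant replicate 1, and T and Foxa1 without mutant replicate 2. In these comparisons 17.4%, 19% and 26.7% of all genes did not overlap. Without control replicate 1 or 2 or mutant replicate 3 it was Car12 alone, beside 32%, 19.8% and 19.7% of all genes. No marker passed after adjustment under any alternative. Signs turned for the keratins and Foxa2. Krt8 was -0.058 with library totals in place of TMM. Krt18 was 0.0078 without the filter, 0.0006 in limma-voom and 0.0003 with the block, and Krt19 was 0.0080 without the filter. With 1 library left out, Krt8 ran from -0.26 to 0.55, Krt18 from -0.37 to 0.39, Krt19 from -0.53 to 0.42 and Foxa2 from -0.68 to 0.085. The cause of these changes was not tested. Library totals without TMM moved the median log2 fold change of all genes from -0.01 to -0.13.

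Over all genes, 1 had an adjusted p under 0.05 in edgeR as reported, 245 without the filter, 58 in DESeq2, 31 without control replicate 1, and 0 in limma-voom, with the block and with any other library left out. At an unadjusted p under 0.05 the count was 1164, and 618 to 2427 with 1 library left out. The replicate numbers did not pair the pools: same-numbered control and mutant libraries correlated at 0.159, -0.132 and 0.101 in their deviations from the group means, and not every library correlated best with its own number. The counts of genes in the other lists stayed within 1.5 times in 125 cases, not always with the same genes, and moved by more in 55. With the block, the count fell to 0 for simple epithelial and muscle genes, and to 1 for carbonic anhydrases and neutrophil genes. It rose to 1 for endothelial genes, 2 for the other nucleus pulposus genes and 5 for neuronal and glial genes. Shh had 3 to 24 and Foxa1 17 to 36 counts a library, and Noto 0 or 1.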

Other observations

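Among 16143 tested genes that are not markers, the 5 whose log2 CPM followed the mean standardized profile of the 9 tested markers most closely over the 6 libraries were Igsf21 (r = 0.993), Serpine3 (0.979), Faddos (0.977), Dhx35 (0.977) and Gm13292 (0.976). Their log2 fold changes of mutant over control were between -0.16 and 0.01, and each is given as a description over 6 points that share their libraries. None of the 5 is among the nucleus pulposus or epithelial genes examined.

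The log2 ratio of T to Krt19 counts was -0.90, -1.50 and -1.35 in control and 0.16, -1.05 and -0.89 in mutant replicates 1, 2 and 3. The means differed by 0.66, mutant replicate 1 stood well above the other 5 pools, and mutant replicate 2 lay within the control range, a comparison chosen after it was seen and not tested.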
